A study of Mus musculus with 6 samples.

Results

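The genes of glucose breakdown, lactate exchange and glycogen turnover were followed in bulk RNA sequencing libraries from mice with chronic constriction injury (CCI) and from untreated mice. The tissue is labelled brain, and the design text places it in the paraventricular thalamus, part of the midline thalamus. CCI is a model of lasting neuropathic pain made by tying loose ligatures around a peripheral nerve. The group was set by symbol: 34 genes of the pathway were looked up in the deposited table of 21959 genes, and every symbol was found. Aldoa had 2 rows, of which ENSMUSG00000030695 was used and the short neighbouring ENSMUSG00000114515, with 0 to 6 counts, was left out. All 34 genes passed the filter on low counts.

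The injured group, CCI, has 3 libraries (replicates 1, 2 and 3) from wild-type mice with the injury, and the control group, PVT_WT, has 3 libraries (replicates 4, 5 and 6) from wild-type mice labelled as having no treatment. No age, sex, nerve or time after injury is labelled. The design text gives 30 mice a group without assigning them to libraries, so the tests weigh the groups against library-to-library spread, part of which could be technical. Counts summed to 7989139 to 10529886 in CCI libraries and to 12337448 to 15438268 in control libraries. Control replicate 5 stood apart from the other controls: its correlation with them on log2(FPKM + 1) was 0.973 and 0.976, against 0.995 between replicates 4 and 6. Its 50 most counted genes held 20.7% of counts, against 12.6 to 14.5% in the other libraries. The mitochondrial share was 1.65 to 1.88% in CCI and 0.686 to 1.28% in control, and 16621 to 16959 genes were detected in CCI and 15800 to 16182 in control. Neither range overlapped between groups, and their part in the results was not tested.

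Glycolysis splits glucose into pyruvate in the cytosol, with phosphofructokinase as its main regulated step. In brain, astrocytes are known to hold nearly all glycogen, to run glycolysis at a high rate and to release lactate through monocarboxylate transporters, and neurons take up lactate and oxidise it. Several steps have isoforms that are conventionally called glial or neuronal, such as the aldolase gene Aldoc (astrocytes) beside Aldoa (broad), the enolase genes Eno1 (non-neuronal) and Eno2 (neuronal), and the glucose transporter genes Slc2a1 (endothelium and glia) and Slc2a3 (neurons).

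Most of these genes had less mRNA in CCI. In the test across all genes (edgeR's quasi-likelihood test, Benjamini-Hochberg adjusted p of at most 0.05), 21 of the 34 were lower, 4 were higher and 9 did not pass. Of all 14259 genes tested 52.3% passed, 25.3% as lower and 27% as higher. Without CCI replicate 1 the lower genes of the 34 numbered 11, against 2630 of all 14435 genes tested. With any other library left out they numbered 14 to 24, against 2775 to 4415 of all 14465 to 14497. The median log2 fold change (CCI over PVT_WT) was -0.62 for the 34 genes and 0.06 for all tested genes. In 20 of the 34 the 3 CCI libraries lay below all 3 control libraries and in 6 above, against 29.4% and 33.6% of all tested genes (63% in either direction).

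That fall has to be read against a trend with abundance that runs through the whole data set. Levels are given here as TMM-scaled FPKM, the count divided by the deposited gene length and by the TMM-adjusted library total, so that levels can be set side by side between genes and fold changes follow from them. The tested genes were split by level into 10 equal bins. In the highest bin, 66.6% were lower in CCI and 4.63% higher, with a median log2 fold change of -0.97. Of the 34 genes 10 lie in that bin, and 8 of those 10 were lower. In the bin below it 56.6% of all genes were lower, and 4 of the 6 pathway genes in it. In the lowest bin 42.7% were higher and 1.96% lower. After a correction that removes each library's trend with mean level, 11 of the 34 genes were lower and 3 higher, against 22.9% and 21.8% of all genes (44.7% in either direction), with a median of -0.07 for the 34 and -0.03 for all. By its construction this correction centres genes of like mean log2 CPM, a level not divided by gene length, on no change. It thus also takes away any true shift that such genes share. The highest bin, set by FPKM, kept a median of -0.28, with 456 of its 1426 genes lower and 216 higher. With gene length corrected as well, that median was -0.002. Of the 34 genes 11 were then lower and 4 higher (all genes 19.1% and 18.2%, together 37.4%). With length alone 21 were lower and 3 higher (all genes 25.7% and 22.4%, together 48%).

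**Figure D1:**
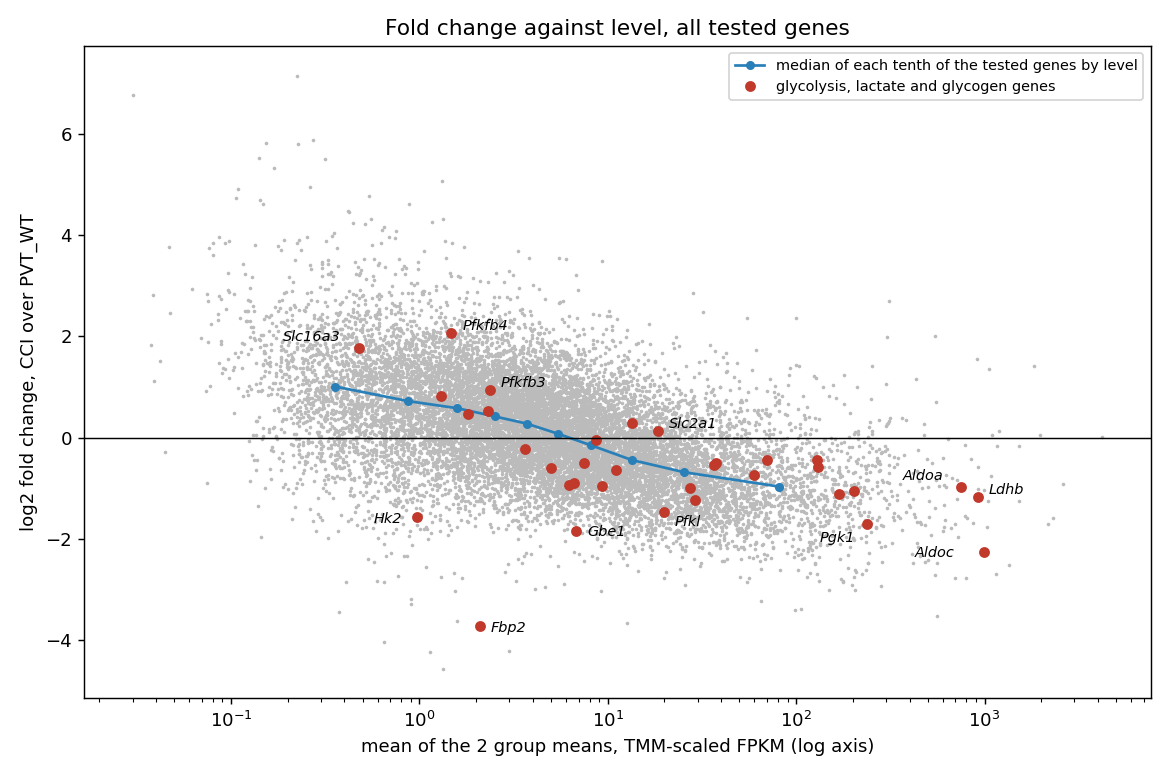
log2 fold change (CCI over PVT_WT, edgeR) of each tested gene against its level, the mean of the 2 group means in TMM-scaled FPKM on a log axis. Grey points are all 14259 tested genes, red points the 34 pathway genes, and the blue line joins the medians of the 10 level bins, which run from 1.01 in the lowest to -0.97 in the highest. Fbp2, Hk2, Gbe1 and Aldoc lie far below the line, and Pfkfb4 lies above it.

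The scaling of the libraries matters as much. On the deposited FPKM, tested with limma as log2(FPKM + 1), the log2 fold changes of single genes moved up by a median of 0.51. The median of all tested genes was 0.42, against 0.06 with TMM scaling, and 57.2% of all genes passed (47.6% higher, 9.64% lower). Among the 34 genes 8 were then higher (Pfkfb2, Pfkfb3, Pfkfb4, Slc16a1, Slc16a3, Slc16a7, Pygb and Gys1) and 5 lower. Of the 21 lower genes 5 kept the call on that scale (Aldoc, Fbp2, Pgk1, Ldhb and Gbe1) and 16 did not, while the 4 higher genes all did. With upper quartile scaling the calls of Slc2a3, Hk1, Hk2, Pfkm, Tpi1 and Gapdh also ended (adjusted p from 0.0507 to 0.192). Statements below that a gene rose or fell are from the TMM-scaled test.

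Of the 25 genes that passed, 4 kept their direction and their call in every alternative that gave a value (17 alternatives, 16 for Fbp2): Aldoc, Fbp2 and Gbe1, lower in CCI, and Pfkfb4, higher in CCI. Aldoc (ENSMUSG00000017390, chromosome 11, 78213794 to 78218607, plus strand, GRCm39), the aldolase that cleaves fructose 1,6-bisphosphate in astrocytes, was at 325, 409 and 292 TMM-scaled FPKM in CCI libraries and at 1446, 1912 and 1545 in control libraries. Every control library held over 3 times the level of any CCI library. The log2 fold change was -2.26 ± 0.28 (SE; adjusted p = 0.000453), -1.66 on log2(FPKM + 1) and -0.87 ± 0.19 after the mean-level correction (adjusted p = 0.00715).

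Gbe1 (ENSMUSG00000022707, chromosome 16, 70110837 to 70366604, plus strand), the glycogen branching enzyme, was at 3.05, 3.14 and 2.75 in CCI and at 11.3, 10.5 and 10.1 in control. The libraries of each group lay close together, and Gbe1 had the smallest adjusted p of the 34 genes (log2 fold change -1.84 ± 0.15, adjusted p = 0.000181). It is of middling abundance, and the mean-level correction left its value nearly unmoved, at -1.87 ± 0.15.

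Fbp2 (ENSMUSG00000021456, chromosome 13, 62984691 to 63006236, minus strand), the muscle-type fructose 1,6-bisphosphatase, works against phosphofructokinase and is known from astrocytes in brain. It was at 0.682, 0.0621 and 0.157 in CCI and at 3.34, 3.54 and 4.74 in control. The CCI values rest on 14 counts over 3 libraries, against 192 counts over the control libraries. Scaled, that is 0.0711 times the control sum (95% interval 0.0381 to 0.122, for counting error only), and the fitted log2 fold change was -3.73 ± 0.59 (adjusted p = 0.00123). Of the 14 CCI counts 10 came from replicate 1, and without that library the value was -5.02.

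Pfkfb4 (ENSMUSG00000025648, chromosome 9, 108820846 to 108861296, plus strand) encodes a bifunctional enzyme that makes and breaks fructose 2,6-bisphosphate, the activator of phosphofructokinase. It was at 2.69, 2.25 and 2.24 in CCI and at 0.934, 0.267 and 0.491 in control. The groups did not overlap, and control replicate 5 held the least (log2 fold change 2.06 ± 0.39, adjusted p = 0.00274, 1.59 ± 0.36 after the mean-level correction).

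The promoters of these 4 genes are shown because their calls held under every alternative. Each line is the 250 bases before the start listed first for the gene in RefSeq on GRCm38.p6, 5′ to 3′ on the gene's strand, with capitals marking ACGTG or GCGTG on either strand. These letters are the core of the hypoxia response element, which hypoxia-inducible factor binds in many glycolytic genes.
Aldoc, chr11:78322823-78323072, plus strand: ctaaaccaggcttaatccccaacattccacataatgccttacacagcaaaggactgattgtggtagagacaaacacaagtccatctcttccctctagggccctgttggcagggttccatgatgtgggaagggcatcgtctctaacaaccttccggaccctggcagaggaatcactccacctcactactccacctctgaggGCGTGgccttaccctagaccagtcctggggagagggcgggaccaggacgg
Fbp2, chr13:62858401-62858650, minus strand: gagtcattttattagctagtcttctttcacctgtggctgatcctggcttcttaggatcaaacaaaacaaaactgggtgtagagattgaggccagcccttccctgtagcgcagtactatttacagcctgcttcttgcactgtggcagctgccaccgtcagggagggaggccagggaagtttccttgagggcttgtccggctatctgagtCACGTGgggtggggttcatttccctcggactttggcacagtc
Gbe1, chr16:70313699-70313948, plus strand: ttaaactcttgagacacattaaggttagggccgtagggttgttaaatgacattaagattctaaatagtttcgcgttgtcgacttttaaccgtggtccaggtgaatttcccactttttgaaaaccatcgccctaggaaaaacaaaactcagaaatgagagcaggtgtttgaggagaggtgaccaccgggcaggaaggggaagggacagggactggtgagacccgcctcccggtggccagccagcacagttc
Pfkfb4, chr9:108991652-108991901, plus strand: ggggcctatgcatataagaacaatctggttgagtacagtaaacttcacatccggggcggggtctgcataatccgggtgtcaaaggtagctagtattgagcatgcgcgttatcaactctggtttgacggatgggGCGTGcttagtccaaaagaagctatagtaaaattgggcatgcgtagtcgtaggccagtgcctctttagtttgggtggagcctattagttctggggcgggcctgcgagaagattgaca
Fbp2 holds ACGTG on both strands at the same place, as the palindrome CACGTG, Aldoc and Pfkfb4 hold GCGTG once each, and Gbe1 holds neither word in this window. RefSeq promoters were found for 32 of the 34 genes. ACGTG stood in 17 of them (53.1%), against 21.2% of the 11254 promoters matched to tested genes and 16.6% of all 27025. It stood in 10 of the 20 promoters of lower genes, in 2 of the 3 of higher genes and in 5 of the 9 of genes that did not pass. GCGTG stood in 15 of the 32 (46.9%), against 44.1% of promoters of tested genes. These matches describe the letters alone.

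**Figure D2:**
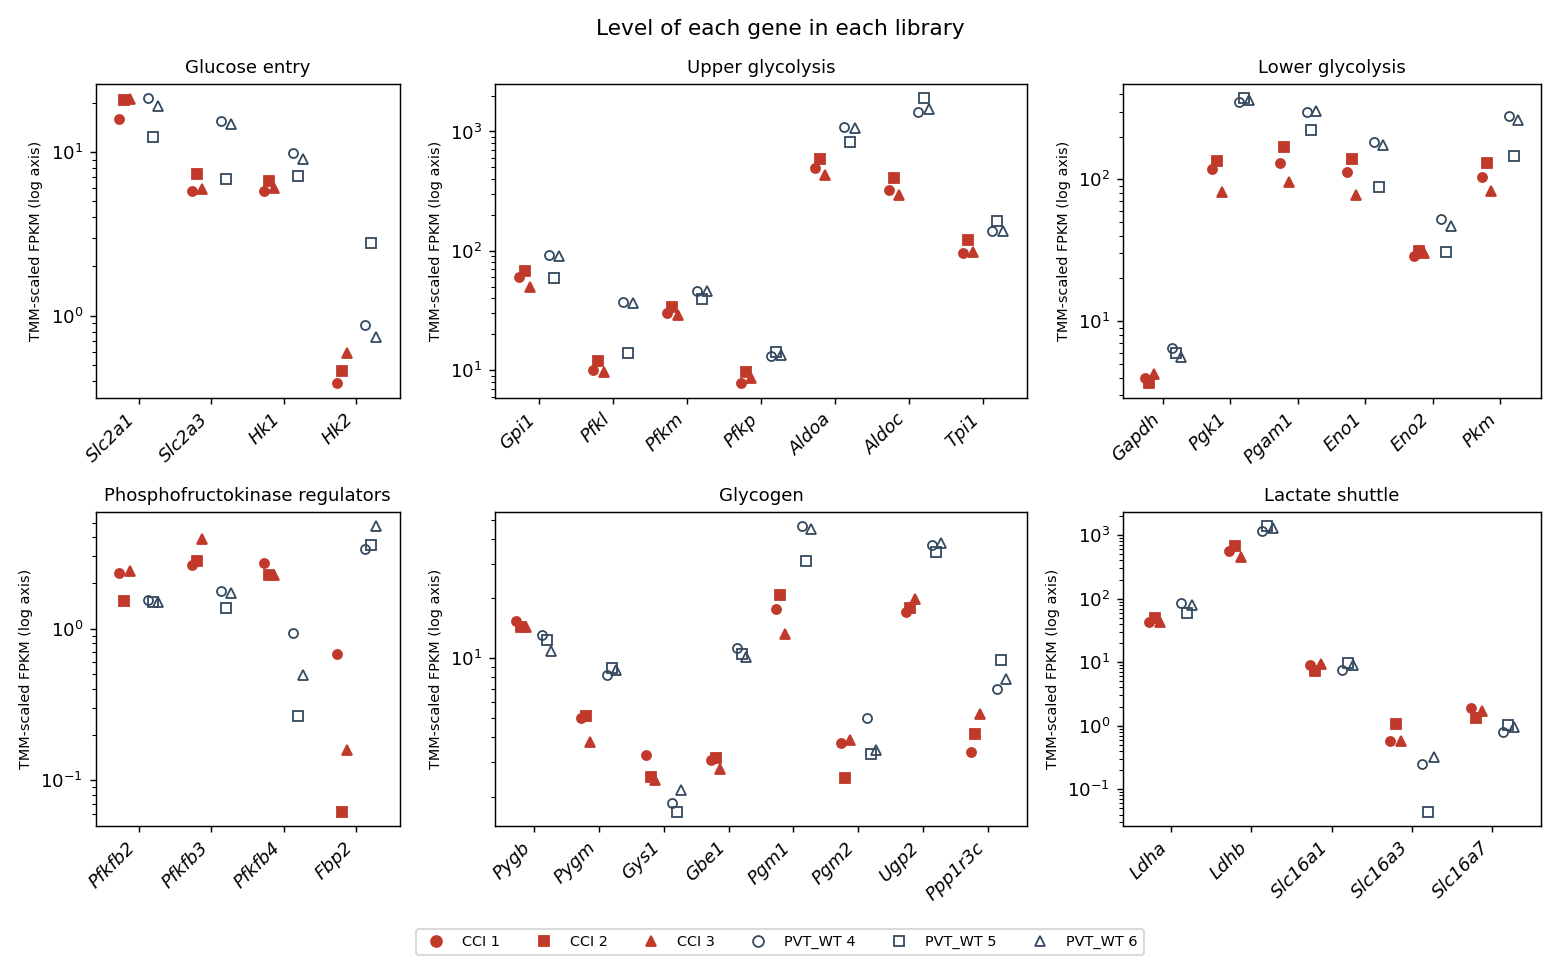
TMM-scaled FPKM (log axis) of the 34 genes in each library, by role. Filled red symbols are CCI replicates 1 to 3 and open dark symbols control replicates 4 to 6. Aldoc, Pgk1, Gbe1 and Ugp2 show a clear gap between groups, with CCI lower, while control replicate 5 lies at or near the CCI libraries for Slc2a3, Pfkl, Gpi1, Eno1 and Eno2.

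Glucose entry had 3 of 4 genes lower, against 25.3% of all genes. Slc2a3, the high-affinity glucose transporter of neurons, was at 5.77, 7.37 and 5.99 in CCI and at 15.4, 6.84 and 14.8 in control. Control replicate 5 lay inside the CCI range, and the fall (-0.96 ± 0.29, adjusted p = 0.0231) was larger without that library (-1.27). Slc2a1, the transporter of the blood-brain barrier and of glia, did not pass (0.12 ± 0.22, adjusted p = 0.671), at 19.2 ± 2.86 in CCI and 17.7 ± 4.75 in control (SD, n = 3 each). Slc2a1 passed as higher with level and length corrected together (0.74, adjusted p = 0.0229), but not on log2(FPKM + 1) (0.71, 0.0672). Hk1, the main brain hexokinase, which traps glucose as glucose 6-phosphate, fell modestly, to 6.19 ± 0.449 in CCI, against 8.71 ± 1.41 in control (-0.49 ± 0.17, adjusted p = 0.0354). The inducible hexokinase gene Hk2 was at 0.386, 0.459 and 0.594 in CCI and at 0.882, 2.77 and 0.739 in control, where replicate 5 was far above the others (-1.58 ± 0.51, adjusted p = 0.0307). Without that library the Hk2 value was -0.76 (adjusted p = 0.0488), and with limma-voom Hk2 did not pass (-1.25, adjusted p = 0.0731). The calls depend on single libraries: without CCI replicate 1 they ended for Slc2a3, Hk1 and Hk2 (adjusted p = 0.0800, 0.130 and 0.0930), and each ended without at least 2 other libraries as well. Without control replicate 5 they held, and the adjusted p fell to 1.43e-05 for Slc2a3 and 0.000643 for Hk1. After the mean-level correction Hk2 stayed lower (-2.12), while Slc2a3 (-0.71, adjusted p = 0.0760) and Hk1 (-0.24, adjusted p = 0.257) did not pass. None of the 3 passed on log2(FPKM + 1), with Hk2 at -0.37 (adjusted p = 0.166), Slc2a3 at -0.26 (0.552) and Hk1 at 0.10 (0.711).

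In upper glycolysis, from glucose 6-phosphate to triose phosphate, 6 of 7 genes fell and 1 did not pass, against 25.3% lower of all genes. The highest level bin, where 66.6% of all genes were lower, holds 4 of these 7. The 3 subunits of phosphofructokinase, the committed step, were all lower. The liver-type subunit gene Pfkl was at 9.97, 12 and 9.63 in CCI and at 37.1, 14.0 and 36.4 in control, so that control replicate 5 was close to CCI while the other controls were over 3 times higher (-1.47 ± 0.34, adjusted p = 0.00707). The muscle-type gene Pfkm fell by 0.50 ± 0.16 (adjusted p = 0.0241) and the platelet-type gene Pfkp by 0.64 ± 0.16 (adjusted p = 0.00918) on the log2 scale. Of these, Pfkl alone passed after the mean-level correction (-0.997, adjusted p = 0.0473), with Pfkm at 0.02 and Pfkp at -0.06. No subunit passed on log2(FPKM + 1), with Pfkl at -0.71 (adjusted p = 0.183), Pfkm at 0.09 (0.698) and Pfkp at -0.04 (0.829).

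Aldoa, the broadly expressed aldolase, was at 492, 593 and 436 in CCI and at 1084, 817 and 1078 in control (-0.97 ± 0.26, adjusted p = 0.0125). Tpi1, which interconverts the triose phosphates, fell to 105 ± 15.0 in CCI, against 157 ± 19.1 in control (-0.58 ± 0.19, adjusted p = 0.0318). The glucose 6-phosphate isomerase gene Gpi1 did not pass (-0.43 ± 0.24, adjusted p = 0.150), but without control replicate 5 it did (adjusted p = 0.00330). Aldoa, Tpi1 and Gpi1 are in the highest level bin and took the opposite sign after the mean-level correction (0.31, 0.29 and 0.46, none passing), and Tpi1 passed as higher when length was corrected too (0.59, adjusted p = 0.0157). On log2(FPKM + 1) the falls of Aldoa (-0.37, adjusted p = 0.228) and Tpi1 (0.01, 0.942) did not hold, and the length correction alone ended those of Pfkm (0.0873) and Tpi1 (0.170). Leaving out CCI replicate 1 ended the calls of Pfkm, Pfkp, Aldoa and Tpi1 (adjusted p from 0.0617 to 0.140), leaving out CCI replicate 3 those of Pfkm, Aldoa and Tpi1 (0.0502 to 0.0987), and leaving out control replicate 6 those of Pfkm and Tpi1 (0.0817 and 0.0604).

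Of the 4 genes that set the balance at phosphofructokinase, Pfkfb3 and Pfkfb4 rose, Fbp2 fell and Pfkfb2 did not pass. Among all genes 27% were higher and 25.3% lower. Beside Pfkfb4, the related gene Pfkfb3, whose kinase-rich product is known to drive glycolysis in astrocytes, was at 2.62, 2.78 and 3.88 in CCI and at 1.77, 1.38 and 1.71 in control. The groups did not overlap (0.93 ± 0.22, adjusted p = 0.00729), and Pfkfb3 was also higher on log2(FPKM + 1) and after the mean-level correction (0.69, adjusted p = 0.0265), but not once length was corrected as well (0.36, adjusted p = 0.190). Pfkfb2 was at 2.33, 1.52 and 2.40 in CCI and at 1.54, 1.499 and 1.51 in control and did not pass (0.46 ± 0.23, adjusted p = 0.115). It passed as higher on log2(FPKM + 1) (0.66, adjusted p = 0.0112), but not after the mean-level correction (0.14, 0.631). The gene lies across Yod1 on the opposite strand, which had 1051 to 4977 counts against 92 to 226 for Pfkfb2. No strand setting is stated for the counts, so reads of such a pair cannot be told apart.

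In lower glycolysis, from glyceraldehyde 3-phosphate to pyruvate, 4 of 6 genes fell, against 25.3% of all genes. Here too 4 genes lie in the highest level bin, where 66.6% of all genes were lower. Pgk1, phosphoglycerate kinase, the first step that yields ATP, was at 119, 134 and 80.9 in CCI and at 349, 375 and 360 in control. Its controls varied little, and the highest CCI library was far under the lowest control (-1.70 ± 0.23, adjusted p = 0.000654). Pgk1 was lower on log2(FPKM + 1) too (-1.13, adjusted p = 0.00313) and after the mean-level correction (-0.77, adjusted p = 0.0141), though not with length added (-0.46, adjusted p = 0.0946). Pgam1, phosphoglycerate mutase, fell by 1.06 ± 0.25 (adjusted p = 0.00784) and the pyruvate kinase gene Pkm by 1.12 ± 0.30 (adjusted p = 0.0140) on the log2 scale, but after the mean-level correction these were at -0.21 and -0.10 and on log2(FPKM + 1) at -0.48 (adjusted p = 0.179) and -0.49 (0.267). The neuronal enolase gene Eno2 was at 29.0, 31.2 and 30.0 in CCI and at 52.5, 30.8 and 47.1 in control and did not pass (-0.53 ± 0.21, adjusted p = 0.0636). Its glial counterpart Eno1 did not pass either (-0.43 ± 0.33, adjusted p = 0.290). Without control replicate 5 both did, Eno2 at -0.75 (adjusted p = 0.000203) and Eno1 at -0.72 (adjusted p = 0.0104), and without CCI replicate 1 or 3 Pkm did not (adjusted p = 0.0576 and 0.0605).

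Gapdh, often taken as a constant reference, had only 3.97 ± 0.304 in CCI and 6.01 ± 0.456 in control. The mouse genome holds many near-identical processed copies of Gapdh, the opposite-strand gene Iffo1 overlaps it with 202 to 401 counts against 165 to 309 for Gapdh, and reads that fit several places are often left uncounted, so its level and its change (-0.60 ± 0.17, adjusted p = 0.0160, and 0.0621 and 0.0684 without CCI replicate 1 and without CCI replicate 2) are uncertain. On log2(FPKM + 1) Gapdh did not pass (adjusted p = 0.992), and after the mean-level correction it did (-0.79, adjusted p = 0.00552). The part played by such reads was not tested. Eno1b, a close copy of Eno1, had 83 to 182 counts in CCI libraries and 46 to 288 in control libraries, against at least 4040 for Eno1.

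Of 5 lactate genes, both dehydrogenase subunits fell, 2 transporters rose and 1 did not pass, against 25.3% lower and 27% higher of all genes. Ldhb, the lactate dehydrogenase subunit of the heart-type tetramer, which favours lactate oxidation and is conventionally placed in neurons, was at 564, 678 and 453 in CCI and at 1174, 1381 and 1285 in control (-1.18 ± 0.24, adjusted p = 0.00400). Ldha, the muscle-type subunit conventionally placed in astrocytes, was at 42.2, 50.4 and 42.3 in CCI and at 84.2, 59.5 and 80.2 in control (-0.73 ± 0.19, adjusted p = 0.0120). Neither group overlapped the other for these genes. Both falls were gone after the mean-level correction, at 0.04 for Ldhb and -0.08 for Ldha. On log2(FPKM + 1) Ldhb passed (-0.60, adjusted p = 0.0266) and Ldha did not (-0.12, 0.696).

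Of the monocarboxylate transporters, Slc16a7, the high-affinity MCT2 of neurons, was at 1.91, 1.34 and 1.72 in CCI and at 0.806, 1.04 and 0.960 in control (0.83 ± 0.21, adjusted p = 0.0108). Slc16a3, the MCT4 through which glycolytic cells and astrocytes release lactate, was at 0.584, 1.08 and 0.579 in CCI and at 0.252, 0.0445 and 0.324 in control (1.78 ± 0.54, adjusted p = 0.0238). These sums are 134 counts in CCI and 40 in control, or 3.27 times the control sum once scaled (95% interval for counting error 2.28 to 4.77). The gene Csnk1d on the other strand, with 389 to 736 counts, overlaps Slc16a3, so these few reads are uncertain. Slc16a1, the MCT1 of endothelium and glia, had a log2 fold change of -0.05 ± 0.17 (adjusted p = 0.843) and passed as higher on log2(FPKM + 1) (0.50, 0.0291). After the mean-level correction Slc16a7 (0.54, adjusted p = 0.0748) and Slc16a3 (1.10, adjusted p = 0.134) did not pass. The length correction alone put Slc16a7 at 0.21 (adjusted p = 0.410). Slc16a7 also did not pass without CCI replicate 1 (adjusted p = 0.0590), nor did Slc16a3 when CCI replicate 2 (0.0951) or control replicate 4 (0.0505) was left out, nor Ldha without CCI replicate 1 (0.0622).

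Glycogen is built and broken down by few enzymes, most of them measured here. Of 8 glycogen genes 5 fell, 3 did not pass and none rose, against 25.3% lower and 27% higher of all genes. After the mean-level correction the same 5 were still lower, while 1 other was higher (all genes 22.9% and 21.8%). Ugp2, which makes UDP-glucose, the building block of glycogen, was at 17, 17.9 and 19.8 in CCI and at 37.2, 34.3 and 38.1 in control (-1.0 ± 0.15, adjusted p = 0.000848). The phosphoglucomutase gene Pgm1, which links glucose 6-phosphate and glucose 1-phosphate, was at 17.7, 20.8 and 13.3 in CCI and at 46.3, 30.8 and 44.9 in control (-1.24 ± 0.23, adjusted p = 0.00239). Ppp1r3c, which targets protein phosphatase 1 to glycogen and is enriched in astrocytes, was at 3.35, 4.12 and 5.23 in CCI and at 6.94, 9.76 and 7.82 in control (-0.94 ± 0.23, adjusted p = 0.00884). In each of these, as in Gbe1, all CCI libraries lay below all controls.

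The glycogen phosphorylases, which release glucose 1-phosphate, differed. The muscle-type gene Pygm was at 4.98, 5.11 and 3.78 in CCI and at 8.21, 8.96 and 8.72 in control (-0.90 ± 0.18, adjusted p = 0.00380, and -1.09 ± 0.19 after the mean-level correction). The brain-type gene Pygb was at 15.4, 14.4 and 14.4 in CCI and at 13.1, 12.3 and 10.8 in control; it did not pass (0.29 ± 0.15, adjusted p = 0.130) but passed as higher after the mean-level correction (0.55, adjusted p = 0.0164) and on log2(FPKM + 1) (0.83). The glycogen synthase gene Gys1 lay above in all CCI libraries without passing (0.52 ± 0.22, adjusted p = 0.0730), beside the opposite-strand gene Ruvbl2, which overlaps it and had 341 to 791 counts against 68 to 154 for Gys1. Gys1 passed as higher on log2(FPKM + 1) (0.77, adjusted p = 0.00610), with upper quartile scaling (0.0214) and with at least 1 CPM required in every library (0.0452). It did not after the mean-level correction (0.16, 0.569). Pgm2 did not pass (-0.23 ± 0.27, adjusted p = 0.502). On log2(FPKM + 1), of the 5 lower genes Gbe1 alone passed (-1.05), and Pygm, Pgm1, Ugp2 and Ppp1r3c lay at -0.27, -0.61, -0.39 and -0.30. With length corrected as well as level, Pgm1 (-0.50, adjusted p = 0.0872) and Ugp2 (-0.25, adjusted p = 0.181) did not pass.

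**Figure D3:**
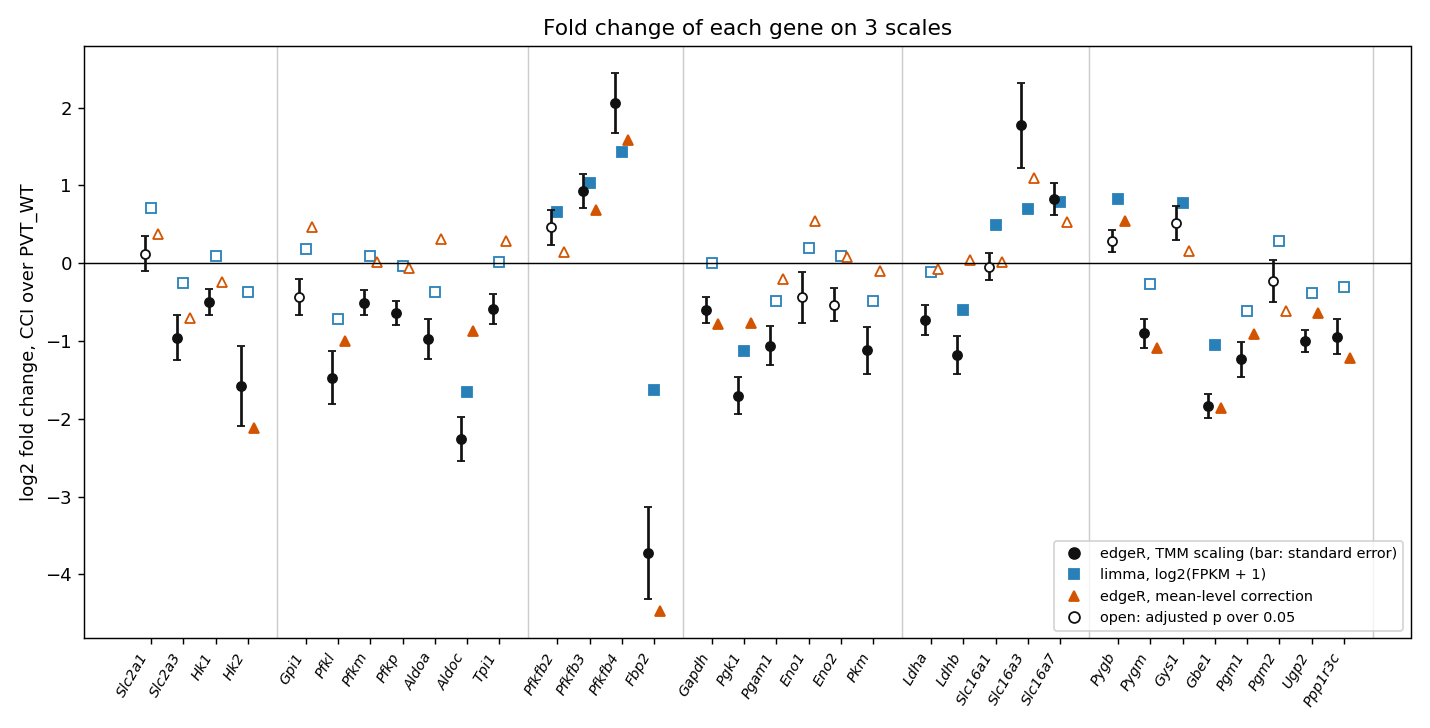
log2 fold change (CCI over PVT_WT) of the 34 genes in role order, from glucose entry at the left to glycogen at the right. Black circles are the TMM-scaled edgeR fit with its standard error, blue squares limma on log2(FPKM + 1), and orange triangles edgeR after the mean-level correction; open symbols did not pass an adjusted p of 0.05. Aldoc, Fbp2, Pgk1 and Gbe1 are filled and below 0 on all 3 scales, Pfkfb3 and Pfkfb4 filled and above 0.

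Of the other genes of glycogen turnover, 21 tested of 23, 6 rose, 5 fell and 10 did not pass (median 0.39, against 0.06 for all genes). Those shares are near the 27% and 25.3% of all genes, while log2(FPKM + 1) gave 11 higher and 1 lower (all genes 47.6% and 9.64%). The kinase that activates phosphorylase had 3 of its subunit genes higher, Phkg1 (1.67 ± 0.18, adjusted p = 0.000271), Phka2 (1.25 ± 0.19) and Phka1 (1.11 ± 0.18). These 3 were also higher after the mean-level correction, at 1.39 for Phkg1, 1.07 for Phka2 and 1.08 for Phka1. They were named for their small p, and the list holds other subunit genes of this kinase that are not described. The 3 thus do not speak for the whole enzyme.

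Among 16 tested of 21 other isoforms of glycolysis and gluconeogenesis, 3 rose, 4 fell and 9 did not pass (median -0.20), against 27% higher and 25.3% lower of all genes. After the mean-level correction none was higher and 5 were lower (all genes 21.8% and 22.9%). The log2(FPKM + 1) test gave 5 higher and 2 lower (all genes 47.6% and 9.64%). Pgam2, the muscle-type phosphoglycerate mutase, fell to 4.87 ± 1.36 in CCI, against 17.6 ± 3.50 in control (-1.86 ± 0.28, adjusted p = 0.000947). Bpgm (-1.07 ± 0.21), which makes 2,3-bisphosphoglycerate, and the ADP-dependent glucokinase gene Adpgk (-1.35 ± 0.30) also fell, and the hexokinase-like gene Hkdc1 rose from a very low base (2.10 ± 0.46). After the mean-level correction Hkdc1 (1.07, adjusted p = 0.103) and Bpgm (-0.45, 0.0741) did not pass, nor did Adpgk on log2(FPKM + 1) (-0.55, 0.188). Of 6 tested of 8 other lactate and pyruvate transport genes, 1 rose and 2 fell, against 27% higher and 25.3% lower of all genes. Bsg, the basigin that carries MCT1 and MCT4 to the membrane, was at 467 ± 68.9 in CCI and 1593 ± 64.4 in control (-1.77 ± 0.24, adjusted p = 0.000602; -0.52, adjusted p = 0.0637, after the mean-level correction). Mpc2 of the mitochondrial pyruvate carrier fell by 0.79 ± 0.22 on the log2 scale but not after the mean-level correction (-0.11, adjusted p = 0.656) or on log2(FPKM + 1) (-0.14, 0.461), and Slc16a8, another lactate transporter gene, rose by 2.54 ± 0.51.

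In the pentose phosphate pathway, which branches off at glucose 6-phosphate and yields NADPH, 3 of 8 genes rose, 2 fell and 3 did not pass, against 27% higher and 25.3% lower of all genes. The log2(FPKM + 1) scale gave 5 higher and 1 lower (all genes 47.6% and 9.64%). G6pdx, its first and rate-limiting enzyme, was at 7.65 ± 0.261 in CCI and 21.6 ± 1.53 in control (-1.50 ± 0.15, adjusted p = 0.000219; -1.42 after the mean-level correction). The epimerase gene Rpe fell by 0.94 ± 0.19, while the isomerase gene Rpia (1.25 ± 0.31) and the lactonase gene Pgls (0.88 ± 0.23) rose. Rpe did not pass on log2(FPKM + 1) (-0.30, adjusted p = 0.282), nor Rpia after the mean-level correction (0.69, 0.0876). Of 13 tested of 14 regulators of glycolytic transcription, 4 rose, 1 fell and 8 did not pass (all genes 27% higher and 25.3% lower). On log2(FPKM + 1) 8 were higher and none lower (all genes 47.6% and 9.64%). After the mean-level correction 2 were higher and 1 lower (all genes 21.8% and 22.9%). The coactivator gene Ppargc1a rose (1.23 ± 0.16), as did the glucose-sensing factor gene Mlxip (0.83 ± 0.19) and the nuclear receptor gene Esrra (0.81 ± 0.26), and Vhl, which marks hypoxia-inducible factor for breakdown, fell (-0.91 ± 0.21). Esrra did not pass after the mean-level correction (0.51, adjusted p = 0.116), nor Vhl on log2(FPKM + 1) (-0.28, 0.404).

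Paired isoforms were compared as a ratio within each library, which library scaling hardly touches. There were 7 pairs, each with the gene called glial on top, apart from the phosphorylases, where it is the muscle type over the brain type. The test was a two-sided exact permutation test of 3 against 3 libraries, whose smallest p is 0.10, so that no pair could pass 0.05. Ratios are of FPKM + 0.1. Aldoc over Aldoa was 0.661, 0.690 and 0.671 in CCI and 1.33, 2.34 and 1.43 in control, a log2 difference of -1.29 (exact p = 0.1). Aldoc was thus the lesser aldolase in every CCI library and the greater in every control library. The difference was -1.25 after the mean-level correction and from -1.04 to -1.44 with 1 library left out.

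Slc2a1 over Slc2a3 was 2.74, 2.79 and 3.49 in CCI and 1.38, 1.79 and 1.30 in control, a log2 difference of 1.02 (exact p = 0.1), and 1.03 after the mean-level correction. The pair went the other way from the aldolases, toward the isoform called glial and endothelial. Pygm over Pygb was 0.326, 0.359 and 0.268 in CCI and 0.628, 0.731 and 0.808 in control (-1.19, exact p = 0.1), and Slc16a1 over Slc16a7 was 4.55, 5.14 and 5.17 in CCI and 8.29, 8.38 and 8.48 in control (-0.76, exact p = 0.1). Groups did not overlap in these, but the transporter difference became 0.41 when level and length were corrected together.

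Ldha over Ldhb was 0.0750, 0.0745 and 0.0936 in CCI and 0.0718, 0.0432 and 0.0625 in control (0.48, exact p = 0.1), a narrow gap that turned to -0.09 after the mean-level correction. Eno1 over Eno2 overlapped between groups (0.09, exact p = 0.7), as did Slc16a3 over Slc16a7 (0.65, exact p = 0.6). Aldoc over Aldoa was lower in CCI and Slc2a1 over Slc2a3 higher, and both kept that direction after the mean-level correction. The other pairs with a gene called glial on top overlapped between groups or changed sign under a correction. No pair could pass the exact test, so these ratios describe the libraries alone, and no direction for glial isoforms in general was drawn.

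**Figure D4:**
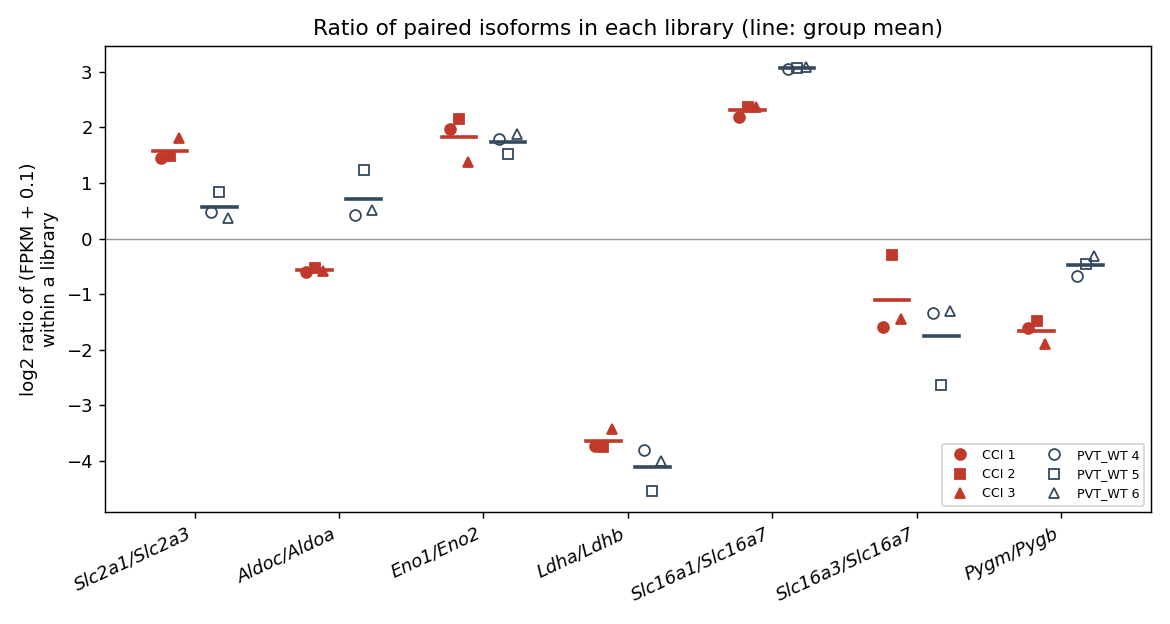
log2 ratio of paired isoforms (FPKM + 0.1) within each library. Filled red symbols are CCI replicates 1 to 3, open dark symbols control replicates 4 to 6, and lines the group means. The Aldoc/Aldoa mean is -0.57 in CCI and 0.72 in control, and the Slc2a1/Slc2a3 mean 1.58 in CCI and 0.56 in control.

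Markers of cell types and neighbouring regions moved in the same libraries, where 27% of all genes were higher and 25.3% lower. Summed TMM-scaled FPKM of 12 astrocyte markers was 388 to 461 in CCI and 643 to 759 in control, with 3 markers higher, 4 lower and 5 not passing: the gap junction gene Gjb6 (-2.36 ± 0.24) and the neurotensin receptor gene Ntsr2 fell, and the water channel gene Aqp4 rose (0.87 ± 0.19). Sums of 11 neuronal markers other than Eno2 spanned 688 to 847 in CCI against 1396 to 1674 in control, with 3 of 12 markers higher and 3 lower. Endothelial and mural sums (9 markers, 2 higher and 3 lower) spanned 75.2 to 92.8 in CCI against 124 to 137 in control. Oligodendrocyte sums (10 markers, 8 higher and none lower) spanned 3603 to 4803 in CCI against 1511 to 2844 in control. Midline thalamus markers summed to 313 to 523 in CCI and 1275 to 1494 in control, with all 7 tested lower, and 8 hippocampal and cortical markers to 37.4 to 53.7 in CCI and 9.71 to 15.1 in control, with 6 of 7 tested higher. Microglial sums overlapped (107 to 143 in CCI, 137 to 153 in control, with 2 of 9 markers higher and 1 lower), as did those of the habenula (67.7 to 207 in CCI, 176 to 504 in control, 3 of 6 lower) and of choroid plexus and ependyma (1697 to 2459 in CCI, 266 to 3550 in control, 1 of 8 higher). These sums depend on the TMM factors. In deposited FPKM, a scale added after the data were seen, the astrocyte sums overlapped (484 to 569 in CCI, 521 to 581 in control), as did the endothelial and mural sums (94.0 to 112 in CCI, 84.8 to 123 in control), and the microglial sums lay above (133 to 176 in CCI, 105 to 126 in control). The neuronal and midline thalamus sums stayed below in CCI (847 to 1025 against 1148 to 1285 in control, and 385 to 653 against 1025 to 1218 in control). The oligodendrocyte sums (4501 to 5921 in CCI, 1308 to 1950 in control) and the hippocampal and cortical sums (46.7 to 66.2 in CCI, 8.005 to 13.6 in control) stayed above. The log2(FPKM + 1) test called 5 astrocyte markers higher and 2 lower (all genes 47.6% and 9.64%). Of the 12 neuronal markers, Eno2 included, 4 were higher and 2 lower in that test. After the mean-level correction 5 of the 12 were higher and none lower (all genes 21.8% and 22.9%), unlike the neuronal sums. Of the 7 midline markers 4 were lower on log2(FPKM + 1) and 2 after the mean-level correction. No marker was at 0 counts in any library. In bulk tissue fewer cells of a type and less RNA per cell cannot be told apart, and the part of these shifts in the values above was not tested.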

How the data were processed

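Gene expression was measured by RNA sequencing of poly-A selected RNA in 3 CCI and 3 PVT_WT libraries of mouse paraventricular thalamus, grouped by title. The submitters' processing notes name GRCm39 and, with no roles given, StringTie 2.2.1, DESeq 1.38.3, HTSeq 0.9.1, HISAT2 2.1.0 and fastp 0.22.0, and no strand setting is given in the sources used here. The authors deposited a read count and an FPKM value per gene and library, with a gene Length in bp; FPKM equalled count over Length and column total to within 4.93e-07. Rows without a symbol held at most 0.0134% of counts and were kept out of every list.

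Counts were tested as deposited with edgeR 4.0.16 (R 4.3.3): TMM scaling (factors 1.21 to 1.25 in CCI, 0.686 to 0.9 in PVT_WT), filterByExpr, quasi-likelihood F-test, Benjamini-Hochberg over all tested genes at 0.05. The SE is the log2 fold change over the root of F. The mean-level correction took a loess (span 0.3) of each library's deviation from mean log2 CPM (prior count 2) as offsets; adding length used splines of 5 degrees of freedom for each. Alternatives were DESeq2 size factors, upper quartile scaling, no filter, at least 1 CPM in every library, leaving out each library, DESeq2 1.42.0, limma 3.58.1 with voom or on log2(FPKM + 1) and log2(FPKM + 0.1), and corrections for level, length or both. Ratios used scipy 1.17.1. The code was tested on simulated counts. Depth limits scarce genes; intervals and sums cover counting error only.

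Every pathway gene may be named; of the other lists, up to 4 tested genes with the smallest unadjusted p are. Genes and lists were chosen with earlier results of these data known. 1 gene of the other glycogen genes is counted but its values are not reported here.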

Additional observations from a re-analysis of the deposited data

How the results depend on the processing

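No paired analysis was possible because the labels number CCI libraries 1 to 3 and PVT_WT libraries 4 to 6. Of the alternatives for single genes, 434 kept direction and call, 80 lost the call, 20 gained one and 42 changed sign. The count of lower genes was 5 on log2(FPKM + 1) and on log2(FPKM + 0.1), against 1374 and 1345 of all 14259 tested genes. It was 11 after the mean-level correction and after the mean-level and length correction, against 3260 and 2727 of all. The count of higher genes was 7 with upper quartile scaling, against 4906 of all 14259. It was 8 on either FPKM scale, against 6785 on log2(FPKM + 1) and 6632 on log2(FPKM + 0.1). With 1 library left out the lower genes numbered 11 to 24 and the higher genes 3 to 4. Of all genes 2630 to 4415 were then lower and 2881 to 4560 higher, 5511 to 8975 together.

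Sign changes on log2(FPKM + 1), then log2(FPKM + 0.1), were Hk1 (0.10, 0.12), Gpi1 (0.18, 0.18), Pfkm (0.093, 0.096), Tpi1 (0.014, 0.014), Eno1 (0.20, 0.20), Eno2 (0.10, 0.10), Slc16a1 (0.50, 0.55) and Pgm2 (0.29, 0.36). After the mean-level correction, then with length added, they were Gpi1 (0.46, 0.24), Pfkm (0.018, 0.35), Aldoa (0.31, 0.34), Tpi1 (0.29, 0.59), Eno1 (0.54, 0.42), Eno2 (0.078, 0.21), Ldhb (0.038, 0.21) and Slc16a1 (0.016, 0.20). With level and length corrected they were also Pfkfb2 (-0.18), Pgam1 (0.14), Ldha (0.24) and Slc16a7 (-0.20). Slc16a1 was at 0.18 with upper quartile scaling and 0.033 with the stricter filter, and Pgm2 at 0.048 after the length correction. With 1 library left out Slc2a1 reached -0.10 without PVT_WT replicate 5, and Slc16a1 ranged from -0.187 to 0.053, above 0 without CCI replicate 2 or PVT_WT replicate 5.

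Among ratios, Ldha over Ldhb was -0.085 after the mean-level correction, Slc16a1 over Slc16a7 was 0.41 with level and length corrected, and Slc16a3 over Slc16a7 was -0.092 with a pseudocount of 1. Eno1 over Eno2 ranged from -0.067 to 0.32 with 1 library left out. The cause of these changes was not tested. Depth limits Fbp2 and Slc16a3, which the stricter filter removed.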
